A study of Mus musculus with 38 samples.

Results

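H3K4me1 domains that appeared at W2 of SOX9 induction and were kept thereafter numbered 2177, of 73415 domains in the W2 list of epidermal stem cells (EpdSCs) of mouse skin, or 2.97%. They were selected on measured H3K4me1 lists: a W2 domain was a member when no D0 or W1 domain overlapped it by even 1 bp and both the W6 and the W12 list had an overlapping domain. Of the 73415 domains, 14670 lacked a D0 counterpart and 12094 lacked one at both D0 and W1. Of these 12094, 2177 were members, 1359 were met again at W6 only, 1002 at W12 only and 7556 at neither time point. The 9917 that failed at W6, at W12 or at both are called "gained at W2 and not kept" here. Because H3K4me1 chose the members, their H3K4me1 values below are a description. H3K27ac, the culture lists, place and sequence were not used by the rule.

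The study induced SOX9, a transcription factor of hair follicle stem cells (HFSCs), in adult EpdSCs, and profiled histone marks by MINT-ChIP, a form of ChIP-seq in which the chromatin of each sample is tagged with a barcode so that samples can share an immunoprecipitation. All skin groups were male *K14rtTA; TRE-myc-Sox9* mice, in which the *Krt14* promoter drives the DOX-dependent activator rtTA in the basal epithelium and DOX switches on MYC-tagged SOX9. DOX was started at P21, so that D0 cells carried both transgenes without induction and W1, W2 and W6 cells came from back skin after 1, 2 and 6 weeks. W12 cells came from neonatal skin of this genotype grafted onto female *Nude* hosts, which lack mature T cells, with 12 weeks of DOX after healing. W12 therefore differed from W6 in duration and in grafting, and these cannot be told apart. All skin cells carried the same sort label, high for CD49f and Ly6A and negative for CD34, CD31, CD45, CD117 and CD140a. Culture lists came from *Krt14-rtTA* EpdSCs of newborn pups with lentiviral, DOX-inducible wild-type (WT) SOX9, ΔHMG-SOX9 (without the domain that binds DNA) or ΔTA-SOX9 (without the transactivation domain). Without DOX a list was given for the WT line only, so that both mutants were set against another line without DOX.

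H3K4me1 is deposited at enhancers by MLL3 and MLL4 and marks enhancers that are primed or active. H3K27ac, placed by p300 and CBP, marks enhancers and promoters that are active, and an enhancer can carry H3K4me1 well before it carries H3K27ac or after it has lost it. SOX9 recognises a short motif through its HMG domain and can bind it in closed chromatin.

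Replicates had been merged before calling, so their spread is unknown, differences between lists carry no p-value, and the exact (Clopper-Pearson) 95% intervals given here cover counting error only. Depth of the H3K4me1 lists is unknown, so a missing domain was not detectable rather than shown to be absent. The D0 list was the longest (87287 domains) and the W1 list the shortest (69439). For H3K27ac, the background pileup was estimated from the listed folds and grows with the number of reads. It was lowest at W1 (0.299), highest at W6 (0.677) and close at W2 (0.425) and W12 (0.411). Replicate 1 of W2 was sequenced in the same libraries as W12, separated by its barcode, so W2 and W12 were not made fully apart. Start sites of 6 EpdSC markers (*Krt5*, *Krt14*, *Krt15*, *Itga6*, *Itgb4* and *Trp63*) all carried H3K27ac up to W6, and 5 of 6 did at W12. Of the markers of other lineages, H3K27ac was at 0 or 1 of 4 endothelial, 1 or 2 of 5 melanocyte, 0 of 5 fibroblast and 0 of 4 immune start sites at each time point. H3K4me1, in contrast, was listed at 3 of 4 endothelial, 3 or 4 of 5 melanocyte and 3 or 4 of 5 fibroblast start sites, beside 6 of 6 of EpdSCs. Immune start sites had it at 0 or 1 of 4. A listing at the start site thus did not clearly separate endothelial, melanocyte and fibroblast markers from those of EpdSCs. Coverage of the locus separated most of them: at W2, H3K4me1 covered 35.4% (*Itga6*) to 96.9% (*Krt5*) of EpdSC marker loci. Of endothelial, melanocyte and fibroblast markers, only *Pecam1* (40.7%) and *Col1a1* (56.6%) reached that range, with *Mitf* next (30.5%). The part of other cells in the member domains was not tested.

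Sequence is shown for 2 sets of domains. The first holds 5 of the 6 domains with the highest W2 H3K27ac score among those with a peak at W2, W6 and W12 and none before, since these were members that also carried the mark of active enhancers. Each sequence is 300 bases centred on the W2 summit, plus strand of GRCm38 from RefSeq, 5′ to 3′, named for the nearest protein-coding gene. Capitals mark SOX (ACAAAG or ACAATG), AP1 (TGANTCA) and RUNX (TGTGGTT) motifs on either strand. The positions were chr2:4922620-4922919 in an intron of *Phyh*, chr11:103051766-103052065 in an intron of *Nmt1*, chr15:27323147-27323446 between genes, with *Ank* nearest, chr14:120147548-120147847 in an intron of *Gm4681*, with *Oxgr1* nearest, and chr9:96782460-96782759 between genes, with *Zbtb38* nearest.
Phyh: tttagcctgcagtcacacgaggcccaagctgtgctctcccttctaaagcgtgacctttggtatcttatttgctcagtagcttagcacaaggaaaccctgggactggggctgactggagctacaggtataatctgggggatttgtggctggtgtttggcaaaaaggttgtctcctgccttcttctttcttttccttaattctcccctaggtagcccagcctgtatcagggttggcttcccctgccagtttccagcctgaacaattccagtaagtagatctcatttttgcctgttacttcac
Nmt1: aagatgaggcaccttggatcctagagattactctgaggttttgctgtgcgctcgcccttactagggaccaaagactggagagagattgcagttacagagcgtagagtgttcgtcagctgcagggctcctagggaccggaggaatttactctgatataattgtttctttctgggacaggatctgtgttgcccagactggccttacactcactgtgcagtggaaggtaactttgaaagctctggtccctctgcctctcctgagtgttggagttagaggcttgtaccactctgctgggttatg
Oxgr1: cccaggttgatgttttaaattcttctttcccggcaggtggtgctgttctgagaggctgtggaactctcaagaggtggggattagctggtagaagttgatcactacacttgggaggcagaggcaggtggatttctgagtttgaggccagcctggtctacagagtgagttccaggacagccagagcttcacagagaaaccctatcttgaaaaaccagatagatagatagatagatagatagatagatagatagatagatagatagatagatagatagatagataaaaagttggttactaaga
Ank: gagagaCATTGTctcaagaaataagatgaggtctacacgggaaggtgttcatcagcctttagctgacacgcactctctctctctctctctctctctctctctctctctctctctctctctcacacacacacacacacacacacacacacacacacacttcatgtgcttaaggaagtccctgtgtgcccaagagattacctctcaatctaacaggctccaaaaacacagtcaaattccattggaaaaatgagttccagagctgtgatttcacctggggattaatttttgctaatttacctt
Zbtb38: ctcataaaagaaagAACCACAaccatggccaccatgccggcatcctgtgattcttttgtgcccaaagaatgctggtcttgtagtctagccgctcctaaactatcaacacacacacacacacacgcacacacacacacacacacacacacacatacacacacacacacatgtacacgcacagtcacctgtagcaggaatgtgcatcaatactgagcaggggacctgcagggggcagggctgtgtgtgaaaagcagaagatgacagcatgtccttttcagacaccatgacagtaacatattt
Of these windows, only that of *Ank* held a SOX motif, CATTGT on the printed strand, with its middle 141 bases before the summit. The *Zbtb38* window held 1 RUNX motif, and none of the 5 held an AP1 motif. Simple repeats can be read in the *Ank* (ct and ca), *Oxgr1* (gata) and *Zbtb38* (ca) windows. That a window lacked these letters says nothing of which factors bound there.

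The other set shows the central 300 bases of the member nearest to the start site of 4 genes discussed below, picked after their values were seen: *Sox9* itself (chr11:112471851-112472150), *Runx1* (chr16:92735551-92735850), *Ctnnb1* (chr9:120927151-120927450) and the Wnt receptor gene *Fzd1* (chr5:4696751-4697050), in the same build, strand and capitals.
Sox9: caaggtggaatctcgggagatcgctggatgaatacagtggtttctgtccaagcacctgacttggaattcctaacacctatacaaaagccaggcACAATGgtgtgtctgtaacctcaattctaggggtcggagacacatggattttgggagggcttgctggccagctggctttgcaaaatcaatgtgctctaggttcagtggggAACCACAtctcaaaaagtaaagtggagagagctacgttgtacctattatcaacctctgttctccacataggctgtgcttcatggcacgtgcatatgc
Runx1: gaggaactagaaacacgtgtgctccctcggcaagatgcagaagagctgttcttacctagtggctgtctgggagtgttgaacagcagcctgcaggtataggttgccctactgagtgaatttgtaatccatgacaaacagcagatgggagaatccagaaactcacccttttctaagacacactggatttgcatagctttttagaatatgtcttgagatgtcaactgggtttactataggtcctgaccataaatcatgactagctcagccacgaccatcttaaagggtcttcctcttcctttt
Ctnnb1: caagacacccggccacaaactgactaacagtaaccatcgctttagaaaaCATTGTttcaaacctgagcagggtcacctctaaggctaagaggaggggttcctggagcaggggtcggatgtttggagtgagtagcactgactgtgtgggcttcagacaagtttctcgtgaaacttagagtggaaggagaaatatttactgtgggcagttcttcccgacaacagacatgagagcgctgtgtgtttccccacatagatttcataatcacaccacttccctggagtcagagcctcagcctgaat
Fzd1: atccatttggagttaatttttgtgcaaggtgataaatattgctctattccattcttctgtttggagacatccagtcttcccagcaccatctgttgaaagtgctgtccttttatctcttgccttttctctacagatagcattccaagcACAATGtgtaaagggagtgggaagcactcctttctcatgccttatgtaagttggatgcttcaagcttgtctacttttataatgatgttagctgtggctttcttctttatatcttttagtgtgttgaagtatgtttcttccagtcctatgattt
The *Sox9*, *Ctnnb1* and *Fzd1* windows each held 1 SOX motif, at 54 and 98 bases before the middle for *Sox9* and *Ctnnb1* and at the middle for *Fzd1*. The *Sox9* window also held a RUNX motif 56 bases after the middle. The *Runx1* window held none of these 3 motifs.

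Members were narrow and mostly in the weaker 50% of their list. Counted from the strongest p-value, their median rank was at 69.5% of the W2 list. Their median width at W2 was 2200 bp (95% confidence interval of the median 2200 to 2400 bp), with quartiles of 1600 and 3200 bp and a range of 400 to 29400 bp, and together they covered 5.87 Mb. The median was 2800 bp over all W2 domains, 3600 bp over the 47232 W2 domains called at every time point, and 2000 bp over domains gained at W2 and not kept. The median p-value of members was 1.76e-15, against 1.59e-25 for all W2 domains and 2.1e-11 for those not kept, and 499 members ranked in the better 50% of the W2 list.

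At W6 the domain over a member had a median width of 2000 bp, and at W12 of 2400 bp. At W6, 1195 members were narrower, 804 wider and 178 equal to their W2 width. At W12 the counts were 1029, 970 and 178. A member was met by a single domain in 2111 cases at W6 and in 2129 at W12, when the median share of its W2 width that was covered was 82.4%. Most members were thus met again as 1 domain, although 426 had under 50% of their width covered at W6 and 294 at W12. That each was met at all was required by the rule, and similar medians do not mean that single domains kept their size.

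**Figure D1:**
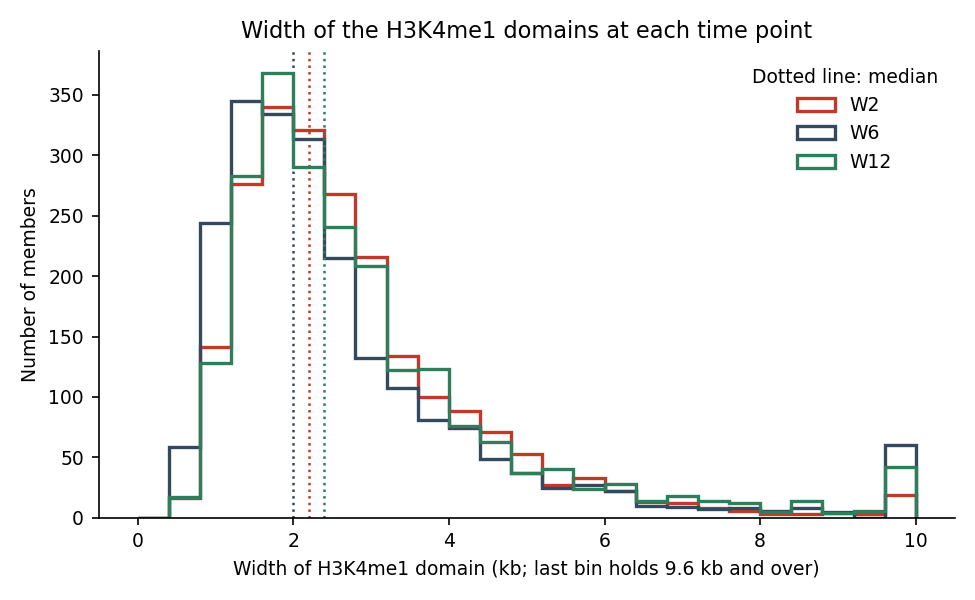
Widths of the 2177 H3K4me1 domains at W2 and of the domains that overlapped them at W6 and W12, in bins of 0.4 kb along the x axis (kb) with the number of members on the y axis; dotted lines mark the medians. The medians were 2200, 2000 and 2400 bp, and the 3 distributions largely lie over each other.

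The rule has an edge. The 18 members within 200 bp (1 bin of the domain caller) of a D0 or W1 domain had a median width of 2100 bp and a median p-value of 9.79e-11. Just outside, 27 W2 domains kept at W6 and W12 overlapped D0 or W1 by at most 200 bp, with 2200 bp and 3.77e-14. Few members lay at this edge: the nearest D0 or W1 domain was at a median distance of 6000 bp, 137 members (6.29%) had one within 1000 bp, 812 (37.3%) had none within 10000 bp and 212 (9.74%) none within 50000 bp. For domains gained at W2 and not kept the median distance was 9600 bp.

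The widest member, which also had the smallest p-value (3.11e-182), lay in an intron of *Spata16*, a testis gene, at chr3:26908801-26938200. Its width was 29400, 4800 and 4000 bp in the W2, W6 and W12 lists. It carried H3K27ac at W2 only, at 8.42-fold over background, and in culture was met only with WT SOX9. The next widest, between genes at chr14:24859601-24873600, measured 14000, 1200 and 5000 bp, had no H3K27ac at any time and was also met in culture with WT SOX9 only. In an intron of *Pappa*, which encodes a protease of IGF-binding proteins, another of the 4 widest (chr4:65338401-65350800) measured 12400, 2800 and 8000 bp and had no H3K27ac. Other members of small p-value lay 173046 bp from *Tenm4* (chr7:95991001-95998200), with H3K27ac at W2 (4.87-fold) and W6 (4.77-fold), and in introns of *Fam47e* (chr5:92559601-92564800) and *Cadps* (chr14:12715001-12723800), without H3K27ac. The *Mgat4a* domain (chr1:37528601-37540400) overlapped a start site, had H3K27ac at W2 (4.91-fold) and W12 (4.12-fold), and was met in culture with WT SOX9 only.

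To see which members also carried the mark of active enhancers, H3K27ac peaks were intersected with them at each time point. Most carried none: 1830 of 2177 (84.1%, 82.5 to 85.6%) had no H3K27ac peak at any time, against 55.9% of all W2 domains. Before the domains appeared, H3K27ac lay over 9 members at D0 (0.413%, 0.189 to 0.783%) and 12 at W1 (0.551%, 0.285 to 0.961%). At W2 and at W6 it lay over 103 each (4.73%, 3.88 to 5.71%), and at W12 over 219 (10.1%, 8.83 to 11.4%). From D0 to W12, the shares over all W2 domains were 26.4, 27.6, 27.4, 27.2 and 24.0%. These levels depended on which domains and peaks were kept: with the better 50% of every list, the members left had shares of 4.56, 4.38, 10.2, 10.6 and 14.9%.

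The share of members was thus below that of all W2 domains at every time point, and it was higher at W12 than at W2 by 5.33 percentage points where that of all W2 domains was lower. Domains gained at W2 and not kept also had their highest share at W12, but at a lower level, with 0.867, 0.343 and 2.38% in the lists from W2 on. Domains gained already at W1 and kept (1645, taken from the W1 list) stood higher, with 11.1, 19.9, 15.4 and 15.6% from W1 to W12. For W2 the intervals of these 3 sets did not overlap. The H3K27ac lists also differed: that of W12 held 33985 peaks of 476 bp median width, and that of W2 29081 of 821 bp. Whether grafting, the shared libraries, this difference between lists or time set the W12 share was not tested.

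**Figure D2:**
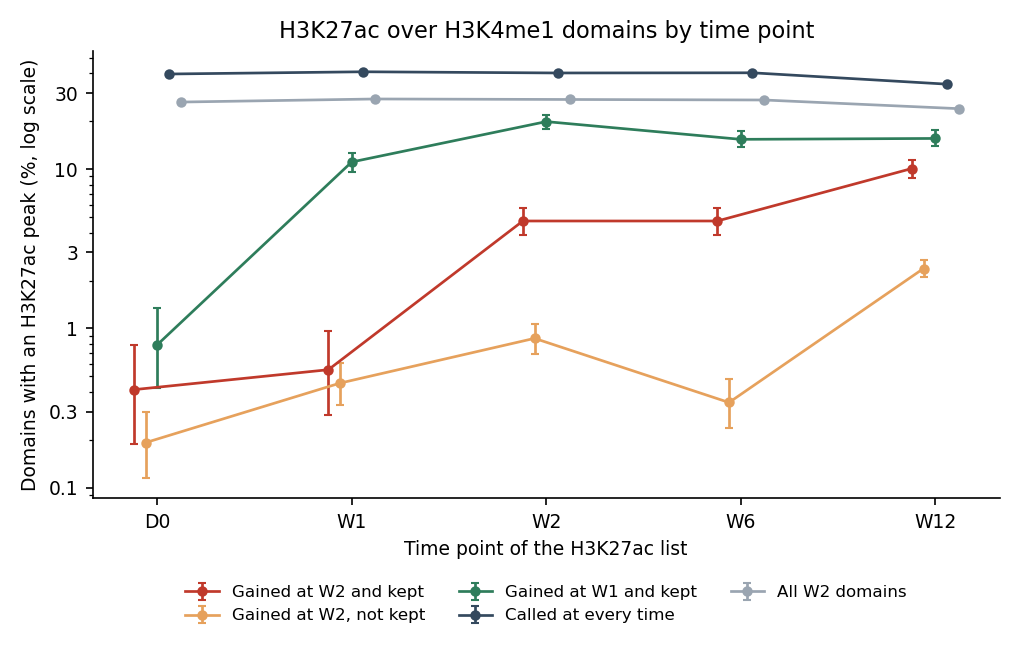
Share of H3K4me1 domains with an H3K27ac peak (y axis, percent, log scale) at each time point (x axis) for members (gained at W2 and kept), for 3 other sets and for all W2 domains; bars are exact 95% intervals of counting error. Members sit at 0.413% at D0, 4.73% at W2 and W6 and 10.1% at W12, between domains not kept and domains gained at W1.

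Most acetylated members had a peak in 1 list only. Of the 347 members with a peak at any time, 17 had it already at D0 or W1, 98 first at W2, 77 first at W6 and 155 first at W12. Of the 103 acetylated at W2, 25 were also acetylated at W6 (24.3%, 16.4 to 33.7%) and 35 at W12 (34.0%, 24.9 to 44.0%). Of the 219 acetylated at W12, 63 (28.8%) had a peak at W2 or W6. These repeat shares were not computed for other sets of domains. Counted from the highest score, peaks over members had a median rank of 72.0% of the W2 list and 78.8% of the W6 list. Whether repeats were rarer than for other domains with such peaks was not tested. A peak at W12 alone was the most frequent pattern (155 members), followed by W2 alone (55) and W6 alone (49). Only 8 members (0.367%, 0.159 to 0.723%) had peaks at W2, W6 and W12 and none at D0 or W1, against 0.700% of all W2 domains.

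Peaks over members were of modest height. The median fold over background was 4.91 over 109 peaks at W2, 4.77 over 118 at W6 and 4.81 over 232 in the W12 list. For peaks over domains called at every time point it was 6.32, 6.56 and 5.67. Width went with acetylation: the 337 members acetylated at W2, W6 or W12 had a median width of 2800 bp, the other 1840 of 2200 bp. Within width classes the contrast with domains not kept was still there. Of members of 4000 bp and over, 12.1% (8.90 to 15.8%) were acetylated at W2, with 7.67 and 17.5% for W6 and W12, and of domains not kept in that class 4.17% (2.90 to 5.77%), 0.613% and 4.66%. Of all W2 domains that wide, 54.3, 51.7 and 45.5% were. Under 2000 bp the W2 shares were 2.46% (1.49 to 3.81%) for members, 0.389% (0.230 to 0.613%) for domains not kept and 6.77% for all W2 domains.

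Among the 8 members acetylated at W2, W6 and W12 only, the highest folds were at *Oxgr1* and at *Trps1*, which encodes a GATA-type repressor expressed in hair follicles. The latter member (chr15:50885401-50891000) overlapped a *Trps1* start site, and its folds from W2 to W12 were 4.21, 11.9 and 11.3. The *Oxgr1* domain (chr14:120145201-120150200) had folds of 4.91, 14.3 and 13.5. Both stood higher at W6 and W12 than at W2. Near *Krt6a*, a keratin of the outer root sheath that is also induced by stress, chr15:101686001-101691400 had folds of 3.23, 5.90 and 3.54, and at *Zbtb38* they were 4.21, 4.17 and 5.67. The *Phyh* domain was highest at W2, with 9.12, 5.96 and 5.67. Folds were 6.32, 6.49 and 7.08 at *Nmt1* and 4.91, 6.83 and 4.25 at *Ank*. Folds from lists of unequal depth are not on 1 scale.

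To ask where members lay, distances were measured to the start sites of GENCODE genes. Most were distal: 1874 (86.1%, 84.6 to 87.5%) lay over 2500 bp from a start site, against 69.1% of all W2 domains and 60.4% of domains called at every time point. Domains not kept (89.0%) and domains gained at W1 and kept (86.4%) had similar or higher shares. The median distance was 17341 bp for members and 9713 bp for all W2 domains. By their centre, 1075 members (49.4%) were intronic, 1007 (46.3%) intergenic and 95 (4.36%) exonic, and 143 (6.57%) overlapped a start site. Over all W2 domains these shares were 56.0, 36.8, 7.17 and 20.7%. H3K27ac at W2 lay over 27 of the 303 members within 2500 bp of a start site (8.91%, 5.95 to 12.7%) and over 76 of the 1874 others (4.06%, 3.21 to 5.05%). By chromosome, the share of W2 domains that were members ran from 2.04% (1.49 to 2.73%) on chromosome 19 to 4.02% (3.31 to 4.82%) on chromosome 16, setting Y, with 3 W2 domains, aside.

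Members were then counted per gene. Assigned to the nearest protein-coding start site, they fell to 1578 of 21938 genes (7.19%). Of these genes 1214 had 1 member, 242 had 2 and 122 (0.556% of all) had 3 or more, which together held 479 members. Joined where under 50 kb apart, members formed 1805 runs, of which 70 held 3 or more. Whether they lay closer together than W2 domains of the same density was not tested. The 3 longest runs held 6 members each, over 129 kb at *Ank*, over 103 kb at *Pitx1* and *H2afy* and over 99.6 kb at *Slc4a7* and a neighbouring pseudogene.

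*Ank*, which encodes a membrane protein of pyrophosphate export, had the most, with 10 members among its 17 W2 domains. They spanned 289 kb from chr15:27243801 to its introns, 7 upstream and 3 within the gene. The 3 within it, 3200, 4400 and 5600 bp at W2, lay under 1 domain of 23000 bp at W6. H3K27ac lay over 2 members at W2 and over 4 at W6 and at W12. In culture, 6 were met without DOX and 4 with WT SOX9, and ΔHMG-SOX9 and ΔTA-SOX9 gave 6 and 8.

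*Pitx1*, a homeobox gene of the hindlimb, had 6 members among only 10 W2 domains, 1 downstream between genes and 5 upstream, in introns, over 169 kb in all. None carried H3K27ac at any time, and 5 were met in culture without DOX. *Osr1*, a zinc finger gene of limb and kidney development, had 8 of 20, none with H3K27ac. The 2 genes thus had many members and no acetylated one, but 84.1% of all members had no H3K27ac peak at any time.

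*Trps1* had 7 members of 46 domains over 887 kb, with H3K27ac over 1 member each in the W2 and W6 lists and over 2 in that of W12, and 3 were met in culture with WT SOX9 and not without DOX. *Nrg1*, a ligand of ERBB receptors, had 7 of 36, with H3K27ac over 1 at W6. *Kalrn*, a regulator of the actin cytoskeleton, had 7 of 37, all in its introns and none acetylated. *Adgrl3*, an adhesion receptor gene, had 7 of 56, with H3K27ac over 1 at W2 and 2 at W12, and 3 met in culture with WT SOX9 and not without DOX. The other genes of the 12 with the most members were *Pappa* (6 of 27), *Trib2*, a pseudokinase gene (6 of 35), *Gpc6*, a glypican gene (6 of 35), *Gmds*, an enzyme gene of fucose synthesis (6 of 39), and *Cdh5*. Ties were ordered by the summed width of the members, and *Flrt2*, *Btbd3*, *Slc4a7* and *Lrig3* also had 6. At *Trib2*, H3K27ac lay over 3 members at W12.

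*Cdh5*, which encodes the cadherin of endothelium, had 9 members of 26 W2 domains, yet none in the gene: they lay 75625 to 580225 bp upstream, with H3K27ac over 1 at W6 and 2 at W12. Its own start site had neither mark at any time point. Only 1 of the 9 was met in culture, with ΔTA-SOX9.

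H3K27ac within 1000 bp of the start sites themselves, which the rule did not use, was then set against the number of members per gene. Of the 122 genes with 3 or more members, 56 (45.9%, 36.8 to 55.2%) carried it at D0 and 61 at W1. At W2 the count was 75 (61.5%, 52.2 to 70.1%), at W6 79 (64.8%), and by W12 it was 64 (52.5%, 43.2 to 61.6%). Over all protein-coding genes the shares were 44.5%, 43.1%, 44.1%, 48.4% and 36.2%. A start-site peak at W2 and none at D0 was found for 23 of the 122 genes (18.9%, 12.3 to 26.9%), and the reverse for 4 (3.28%). A peak at W2 and none at D0 was found for 3.67% of all genes, for 7.28% of genes with 1 or 2 members, and for genes with no member and 3 or more domains gained at W2 and not kept the share was 4.91% (3.36 to 6.90%).

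The interval for genes with 3 or more members overlapped none of these. Genes with many members also have many H3K4me1 domains in all, so 1160 genes with no member and 10 or more W2 domains were set beside them, of which 4.57% (3.44 to 5.93%) had a peak at W2 and none at D0 and 5.26% the reverse. Of these 1160, however, 66.2% already carried a start-site peak at D0, against 45.9% of the 122 genes. A smaller share of them could therefore gain one, and the 2 groups were not matched for this. Leaving out the 8 genes with a member at a start site gave 19 of 114 (16.7%, 10.3 to 24.8%). Both marks came from the same pools of cells, gene lengths and numbers of start sites were not matched, and no test over replicates was possible.

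**Figure D3:**
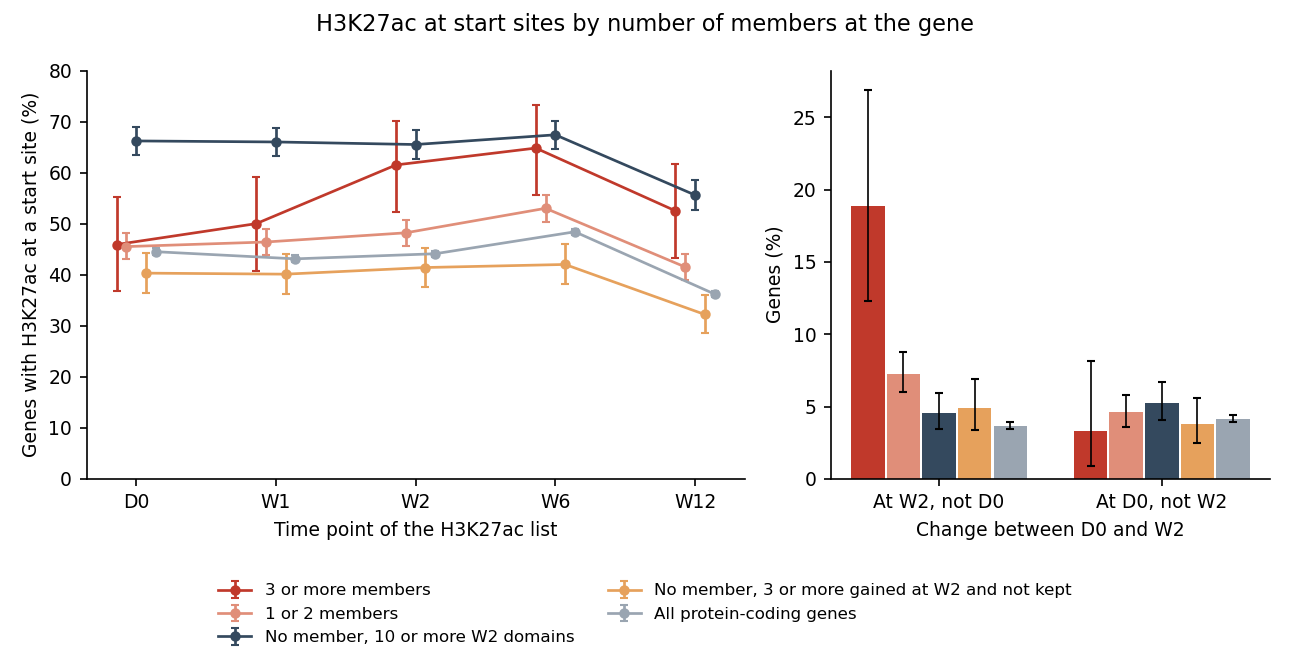
Left, share of genes with an H3K27ac peak within 1000 bp of a start site (y axis, percent) by time point (x axis), for genes grouped by their number of members and for all protein-coding genes; right, share of genes with a peak at W2 and not D0, or at D0 and not W2. Bars are exact 95% intervals of counting error. Genes with 3 or more members stand at 18.9% for peaks at W2 and not D0, and the other groups between 3.67% and 7.28%.

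The 23 genes included 7 of the 12 genes with the most members: *Ank*, *Nrg1*, *Kalrn*, *Trps1*, *Adgrl3*, *Trib2* and *Gpc6*. The 4 genes that tied with the last of the 12 were not among the 23. Start sites of *Ank*, *Trps1*, *Adgrl3* and *Trib2* carried H3K27ac at W2, W6 and W12 and not at D0 or W1. That pattern was found at 9 of the 122 genes (7.38%, 3.43 to 13.5%) and at 0.406% of all genes. The *Nrg1* start site was acetylated from W1 on, that of *Kalrn* at W2 alone and that of *Gpc6* at W2 and W6. Among the 23 were also *Tnc*, the matrix protein tenascin C, *Lpar1*, a receptor of lysophosphatidic acid, *Casp1*, *St6gal1* and *Nek6*, named here after their values were seen. *Osr1*, *Pitx1* and *Cdh5* had no start-site peak at any time, *Gmds* had one throughout and *Pappa* at D0 alone.

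Gene lists of the skin were read against the 2.97% of all W2 domains that were members. HFSC transcription factors had 16 members among 375 W2 domains (4.27%, 2.46 to 6.84%), at 9 of 18 genes. *Sox9* had 5, all in the gene desert upstream of it, at 308224 to 715624 bp from its start site. One of these (chr11:112442601-112444600) carried H3K27ac, at W12 only (4.25-fold), and 1 (chr11:112064801-112066600) was met in culture with WT SOX9 alone. *Foxc1*, *Tbx1* and *Tcf7l2* had 2 each, and *Barx2*, *Nfib*, *Sox21*, *Sox4* and *Tcf7l1* had 1 each. One *Foxc1* member (chr13:32035801-32038400) was met in culture with WT SOX9 only and carried H3K27ac at W12 (5.67-fold).

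SOX factors as a list had 15 members of 265 (5.66%, 3.20 to 9.16%), the only list but that of endothelium, and that of melanocytes, whose interval lay above 2.97%. Besides those of *Sox9* they were at *Sox5* (3), *Sox11* and *Sox13* (2 each), *Sox10*, *Sox21* and *Sox4*. Both *Sox13* members, at 4531 and 7624 bp from a start site, were met in culture with WT SOX9 and not without DOX. Markers of HFSCs and outer root sheath had 7 of 131 (5.34%, 2.18 to 10.7%). *Cd34*, whose protein the sort excluded, had a member of 10200 bp over a start site (chr1:194937801-194948000) with H3K27ac at W2 (4.73-fold) and W12 (3.11-fold). These peaks lay elsewhere in the domain: within 1000 bp of a *Cd34* start site there was no H3K27ac peak at any time point. *Krt6a*, *Grem1* and *Postn* had 1 each and *Fst* 2. Epidermal identity factors had 4 of 329 (1.22%, 0.332 to 3.08%), 1 each with *Cebpb*, *Gata3*, *Klf5* and *Zfp750* as the nearest gene. That of *Gata3* lay 1108000 bp from its start site, and those of *Klf5*, *Cebpb* and *Zfp750* 92291, 63286 and 3868 bp.

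The RUNX, AP1 and NF-κB list had 10 members of 194 (5.15%, 2.50 to 9.28%). *Runx1*, an HFSC factor also known from cancers, had 5, of which 1 was in an intron of the gene (chr16:92735001-92736400), 1400 bp at W2 and 12000 bp at W12. The other 4 lay 289252 to 366852 bp from its start site. *Cbfb*, its partner gene, *Runx2*, *Fos*, *Jun* and *Nfkb1* had 1 each. None of the 10 carried H3K27ac at any time, and 84.1% of all members carried none either.

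The WNT list had 17 of 472 (3.60%, 2.11 to 5.70%), with *Fzd1* at 5 and *Ctnnb1*, which encodes β-catenin, at 4. The *Ctnnb1* member nearest to its start site (chr9:120926001-120928600, 4800 bp away) carried H3K27ac at W6 only, at 5.37-fold. BMP and TGF-β genes had 16 of 468 (3.42%, 1.97 to 5.49%), *Acvr2a* with 3 and *Tgfb3* with a member of 8000 bp, 112441 bp from its start site, that carried H3K27ac at W12 (7.79-fold). Hedgehog genes had 4 of 201 (1.99%, 0.545 to 5.02%), and of these the *Gli2* intron (chr1:118980201-118989200) carried H3K27ac at W2 only, at 3.97-fold.

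Cytoskeleton, EMT and migration genes had 18 of 472 (3.81%, 2.28 to 5.96%), led by the semaphorin receptor gene *Nrp2* and the EMT factor gene *Zeb2* with 3 each. The *Zeb2* members lay 473206 to 1394606 bp from its start site. Growth factor and cell cycle genes had 12 of 359 (3.34%, 1.74 to 5.77%), with *Myc* at 4 and *Pdgfc* at 3. The *Fgfr1* member (chr8:25517601-25518800) overlapped a start site and had H3K27ac at W2 (4.91-fold) and W6 (7.75-fold). Adhesion genes had 3 of 243 (1.23%, 0.255 to 3.57%), all at *Tnc*. Among markers of other lineages, *Cdh5* gave 9 of 49 for endothelium (18.4%, 8.76 to 32.0%), *Dct* (3) and *Mitf* (2) gave 5 of 53 for melanocytes (9.43%, 3.13 to 20.7%), immune genes had 1 of 19 and fibroblast genes 0 of 20, which allows a share of up to 16.8%. The 3 *Dct* members were 120185 to 199785 bp from its start site and lay in introns within the body of *Gpc6*, and without them the melanocyte list had only the pair at *Mitf*.

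The culture lists asked which members could be found in EpdSCs outside the skin, and with which SOX9. Of the members, 49.2% (47.1 to 51.3%) were met in culture without DOX and 63.7% (61.7 to 65.7%) with WT SOX9. ΔHMG-SOX9 gave 50.8% (48.6 to 52.9%) and ΔTA-SOX9 55.2% (53.1 to 57.3%). Over all W2 domains the shares were 66.0%, 69.0%, 65.7% and 66.4%. About as many members as not were thus met in uninduced culture, although all had been missing from the D0 list of skin. Culture lists came from newborn cells, in another layout and with caller q-values up to 0.0982 without DOX. Their cut-offs were not matched to those of the skin lists. Domains not kept were met less often, at 20.3%, 30.7%, 21.8% and 24.4%.

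With WT SOX9, 453 members (20.8%, 19.1 to 22.6%) were met that were not met without DOX, and 137 were met only without DOX, a ratio of 3.31 and a difference of 14.5 percentage points. Of all W2 domains 9.41% were met with WT SOX9 and not without DOX, and the ratio was 1.48. For ΔHMG-SOX9 the 2 counts over members were 146 and 112, and for ΔTA-SOX9 244 and 113 (2.16). Over all W2 domains the ratios for these mutants were 0.941 and 1.07, with 4.52 and 5.99% of domains met with the mutant and not without DOX, and over domains not kept the counts were 529 and 381 for ΔHMG-SOX9 and 824 and 412 for ΔTA-SOX9. For domains gained at W1 and kept the WT ratio was 14.9 (626 and 42), for domains not kept 2.85 (1597 and 560), and for domains called at every time point 0.961.

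Of the 453 members gained with WT SOX9 in culture, 88 (19.4%, 15.9 to 23.4%) were also met with ΔHMG-SOX9 and 119 (26.3%, 22.3 to 30.6%) with ΔTA-SOX9. All 4 lists held 812 members (37.3%), none held 510 (23.4%), and 303 (13.9%) were met with WT SOX9 alone. Of all W2 domains, 54.7% were in every culture list, 20.4% in none and 5.86% in that of WT SOX9 alone. H3K27ac in skin at W2 lay over 6.40% (4.33 to 9.06%) of the 453 and over 4.60% (3.35 to 6.15%) of the 934 met with and without DOX, and at W12 over 9.49% and 12.7%, with overlapping intervals in both cases. The ΔTA list was the longest in culture (123338 domains) and the list without DOX the shortest (110589). The 4 culture conditions were each read from 1 list, from 2 libraries in all, and their depth is unknown. The labels of these 2 libraries name a low and a high digest by the nuclease MNase and do not name biological replicates.

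**Figure D4:**
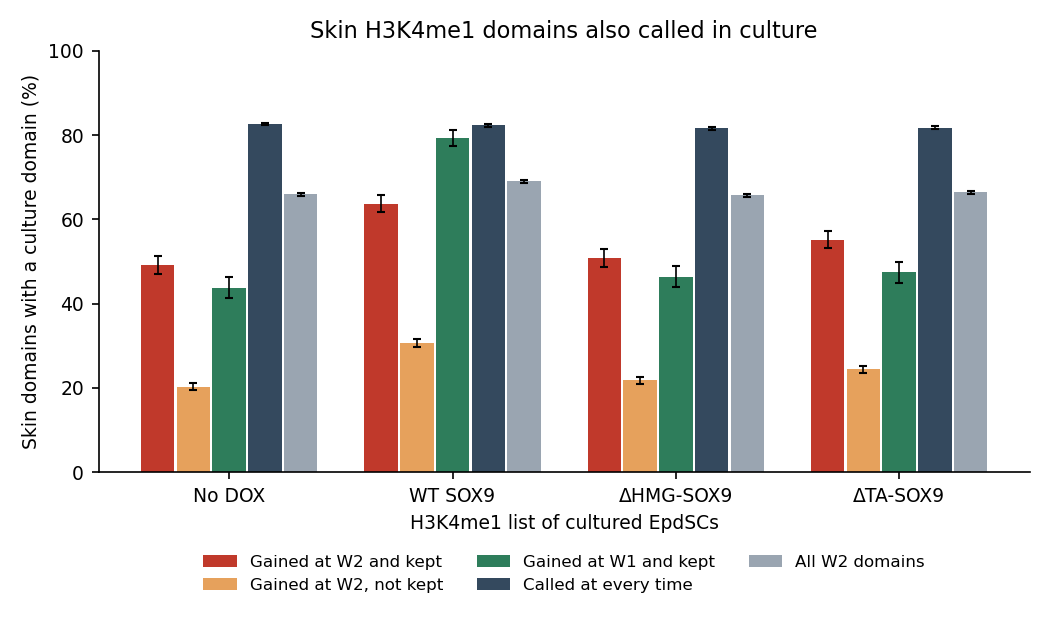
Share of skin H3K4me1 domains that overlapped an H3K4me1 domain of cultured EpdSCs (y axis, percent) for each culture list (x axis) and each set of skin domains; error bars are exact 95% intervals of counting error. Members stand at 49.2% without DOX and 63.7% with WT SOX9, and domains gained at W1 and kept at 43.8% and 79.3%.

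Motif letters were counted on both strands in the central 1000 bp of each domain and given beside the share over all W2 domains. A SOX motif lay in 84.5% (82.9 to 86.0%) of members against 77.3% of all, an AP1 motif in 43.8% (41.7 to 45.9%) against 32.2%, and a RUNX motif in 28.3% (26.4 to 30.2%) against 21.3%. So short a motif as SOX is present in most windows of this length. Domains not kept had SOX letters nearly as often (82.7%, 81.9 to 83.4%), but AP1 in 31.2% (30.3 to 32.1%) and RUNX in 21.9% (21.1 to 22.8%). For AP1 and RUNX the members lay above both comparison shares, with intervals that did not overlap those of domains not kept.

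Domains gained at W1 and kept held SOX letters in 88.4% (86.8 to 90.0%), AP1 in 40.7% (38.3 to 43.1%) and RUNX in 23.0%. The KLF motif (GGGNGTGG) was in 24.2% of members against 28.8% of all W2 domains, and the LHX motif (TAATTA) in 26.4% against 25.5% of all and 35.1% of domains not kept. Shares for GATA (43.8% against 44.2%, with AGATAA as its letters), TEAD (47.7% against 46.2%, GGAATG), GRHL (16.9% against 17.2%, with AACNNGTT as its letters), a pair of facing SOX half-sites (4.13% against 4.17%), the p53 family (5.19% against 4.62%) and NFI (0.184% against 0.117%) lay close to those of all W2 domains. Such matches are letters in a window and not measured binding.

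**Figure D5:**
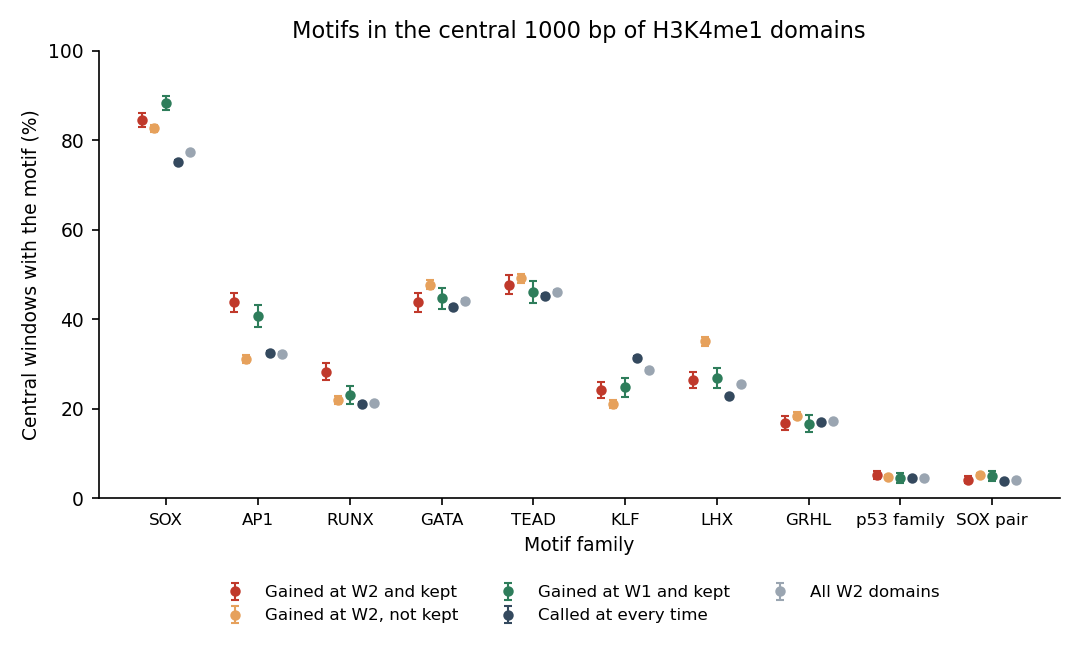
Share of central 1000 bp windows (y axis, percent) with each motif family (x axis) for members, 3 other sets and all W2 domains; bars are exact 95% intervals of counting error. Members lie highest for AP1 (43.8%) and RUNX (28.3%), and domains gained at W1 and kept lie highest for SOX (88.4%).

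Base composition differs between the sets, with a median GC content of 44.9% for members, 45.6% for all W2 domains and 43.7% for domains not kept, so motifs were also counted in 3 classes of GC. Below 43.4% GC, AP1 letters were in 47.8% (44.4 to 51.3%) of members and 33.7% (32.3 to 35.0%) of domains not kept. From 43.4% to 48.0% the shares were 42.5% (39.0 to 46.0%) and 30.4% (28.9 to 32.0%), and above it 39.8% (35.7 to 43.9%) and 26.4% (24.4 to 28.5%). RUNX letters were in 243 of 811 members in the lowest class and in 28.8% and 25.2% in the others, against 23.6%, 21.3% and 18.7% of domains not kept. The order of the 2 sets was the same in each class for both motifs. SOX letters were in 87.9%, 86.2% and 77.3% of members, and in 85.5%, 82.5% and 75.6% of domains not kept.

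Motif shares were also set beside the culture classes. The 453 met with WT SOX9 and not without DOX held SOX letters in 89.2% (86.0 to 91.9%) and AP1 in 38.6% (34.1 to 43.3%). The 934 met with and without DOX held SOX in 82.8% (80.2 to 85.1%) and AP1 in 48.7% (45.5 to 52.0%). The 653 in neither WT list held them in 85.1% and 38.7% (35.0 to 42.6%). RUNX letters were in 26.7%, 28.5% and 28.9% of the 3 groups. In 300 bp around H3K27ac summits at W2, SOX letters were at 46 of 109 summits over members (42.2%, 32.8 to 52.0%) against 31.2% of all W2 summits. At W6 the shares were 31.4% of 118 and 29.3%, and at W12 38.4% of 232 (32.1 to 45.0%) and 32.7%. AP1 letters were at 11.0, 11.0 and 14.2% of member summits at W2, W6 and W12, against 9.34, 8.45 and 9.25% of all. RUNX letters were at 5.50, 9.32 and 5.60%, against 5.51, 5.41 and 6.04%. Of these AP1 and RUNX shares, only that of AP1 at W12 had an interval above the share of all summits.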

How the data were processed

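The 14 interval lists used were made from pooled replicates. Every library was labelled with a high or a low digest by the nuclease MNase, and the list names do not tell these digests apart. As the study's methods state, the authors assigned reads to samples by barcode, used Skewer for adapters, Bowtie2 (2.2.9 in the submitters' processing notes) for alignment to GRCm38/mm10 and Picard for duplicates, and joined replicates in Samtools. They called H3K27ac peaks with MACS2 (2.1.1 in those notes) and H3K4me1 domains with epic2. Callers' settings and controls were not given in the sources used here. The culture lists have the layout of MACS2 broad peaks, so their caller is unclear, and their conditions were read from the list names. The deposited H3K4me1 lists of skin give a p-value per domain. The deposited H3K27ac and culture lists give a score, a fold enrichment (a ratio to background) and −log10 q. In the H3K27ac lists, 1 background value per list fitted the folds of 82.3% (W12) to 95.9% (D0) of peaks, and that value is the background pileup given above. Total H3 and 14 files with barcodes were not used here.

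Here, overlaps of at least 1 bp, distances and shares were computed in Python 3.11.15 with numpy 2.4.6, pandas 2.3.3 and scipy 1.17.1 on 21 chromosomes, with figures from matplotlib, and the functions were tested on simulated lists. Start sites were those of 55413 genes of the basic set of GENCODE M21. Domains gained at W1 and kept were W1 domains without D0 overlap and with one at W2, W6 and W12. Motifs were exact letters on both strands of the GRCm38 sequence. Lists were ranked by p-value or score, and ranks were used within a list only. Depth limits are given with the results. Members, gene lists and comparisons were chosen with earlier results of these data known. Genes named were the 12 with the most members and members at genes of 15 lists; domains named were the 6 with the smallest p-values, the 4 widest and the 8 acetylated at W2, W6 and W12 and not before, of which 1 is not reported here. Start-site H3K27ac by number of members and motifs by GC were added after the members had been described.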

Additional observations from a re-analysis of the deposited data

How the results depend on the processing

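The number and median width of members, their H3K27ac shares, the distal share, the culture shares without DOX and with WT SOX9, the share with SOX letters and the genes with 3 or more members were recomputed with an overlap of 50% of the shorter interval, with intervals in the better 50% of their list by p-value or score, without members that had a D0 or W1 domain within 1000 bp, with neighbours under 1000 bp apart joined, and without chromosomes X and Y, and some of them under other limits too. Other results, among them the AP1 and RUNX shares, the gene lists and the mutant culture lists, were not recomputed. Of 71 values, 55 stayed within the 95% interval of the reported value or, for counts, within 1.5 times of it, and 16 moved. Keeping the better 50% of every list moved most. It left 1119 members with a median width of 3600 bp, H3K27ac over 4.56, 4.38, 10.2, 10.6 and 14.9% from D0 to W12, 76.4% over 2500 bp from a start site, 52.7% met in culture with WT SOX9 and 44.3% without DOX, 39 genes with 3 or more members and SOX letters in 81.0%. Since D0 and W1 are thinned too, domains that ranked low there no longer bar a W2 domain, by this alternative's own construction. WT SOX9 stayed above no DOX in culture by 8.40 points there and by 14.4 to 14.5 points in the others, and H3K27ac at W12 above W2 by 4.74 to 5.39 points. The distal share was 90.7% with a limit of 1000 bp and 65.6% with 10000 bp, 39 genes held 3 or more members in the gene body, and the central 400 bp held SOX letters in 54.0%. The share of genes with 3 or more members with start-site H3K27ac at W2 and not D0 was 16.0% to 20.5% under 7 alternatives, all chosen after seeing the data. No paired analysis was possible because every list pools its replicates, and for the same reason no replicate could be left out. H3K4me1 depth is unknown, so domains near the calling threshold may be missing from a list for want of reads.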
